A study of Homo sapiens with 6 samples.

Results

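The genes described here are those whose symbol begins with KLHL, KBTBD or BTBD followed by a digit. They make up 55 of the 16407 genes in the deposited table, with 35 KLHL, 9 KBTBD and 11 BTBD genes, and 41 of them passed a filter on low counts that left 12548 genes for testing. The set was selected on the log2 changes between the same 6 libraries, in which the KLHL genes leaned higher, so every count, median and p-value of that contrast is given as a description of the set and supports nothing about it. RNA was measured in C666-1, a cell line from human nasopharyngeal carcinoma that carries Epstein-Barr virus. The 3 deprived libraries came from cells kept for 24 h in a medium with 0 mM serine and 0 mM glycine, and the 3 libraries of complete medium from cells given 0.4 mM of each amino acid for the same time. Both media were a minimal essential medium lacking the non-essential amino acids, with 4.5 g/L glucose, 10% dialyzed serum and antibiotic, and the design asks which transcripts differ once serine and glycine are taken away. The labels do not say that the libraries came from separate cultures, and the p-values reflect how far these 6 libraries spread, a spread that could be purely technical.

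KLHL and KBTBD proteins carry a BTB domain, which docks on the scaffold protein CUL3, and a propeller of Kelch repeats, which holds a substrate. Together with the RING protein RBX1 they form ubiquitin ligases, in which the adaptor decides which protein is ubiquitinated and often sent to the proteasome. BTBD proteins have the BTB domain without Kelch repeats, so the 55 genes are not all BTB-Kelch genes, and for some of them no ligase activity is known. In skin, KLHL24 is known for the turnover of keratin 14, and the family as a whole is known for roles in cell division, secretion, muscle and salt balance.

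Without serine and glycine, 3 genes of the set rose: KLHL20, KLHL21 and KLHL42, by 1.25 to 1.38-fold. KLHL24 had the second largest fold of the tested genes, 1.49, but its adjusted p of 0.0511 (edgeR) missed the threshold of 0.05, and several other fits called it. None of the set was called lower, against 4.22% of all tested genes. KLHL35 had the largest difference in that direction, with a log2 change of -0.82. The log2 change lay between -0.2 and 0.2 in 27 of 41 tested genes, and in 8094 of all 12548 tested genes.

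The libraries held 16612196 to 17030355 counts. Of 7 epithelial markers 5 were tested, with KRT18 at 597 FPKM (fragments scaled by transcript length and library depth), KRT8 at 307, KRT19 at 50, EPCAM at 5.57 and TP63 at 1.18. KRT5 and CDH1 were too low to test: KRT5 had 0 counts in every deprived library and 1, 0 and 4 in complete medium, and CDH1 had 8, 2 and 2 against 6, 7 and 4. The summed epithelial markers ranged from 1092 to 1211 CPM (counts scaled to a common library size by TMM) in deprived libraries and from 1208 to 1354 CPM in complete medium, and 1 of the 5 tested was called lower. That gene, KRT19, had 45.6, 49.1 and 44.9 CPM in deprived libraries, against 62, 69 and 64.1 CPM in complete medium (log2 change -0.48 ± 0.0713, adjusted p 0.0217, edgeR). KRT18 was called lower only with libraries matched by number (log2 change -0.16, adjusted p 0.0342, or 0.156 unmatched, edgeR). Leukocyte markers summed to 36.7 to 40.2 CPM in deprived libraries and 50.2 to 60 CPM in complete medium, nearly all from CD68. CD68, the 1 of 2 tested that was called, had 39.4, 36.5 and 35.2 CPM in deprived libraries, against 49.6, 59.8 and 52.3 CPM in complete medium, and was lower (log2 change -0.54 ± 0.0868, adjusted p 0.0217, edgeR). CD14, the other tested one, lay the other way at a low level, with 0.816, 1.43 and 1.41 CPM in deprived libraries, against 0.598, 0.182 and 0.6 CPM in complete medium (log2 change 1.39 ± 0.432, adjusted p 0.0764, or 0.0404 with libraries matched by number, edgeR). PTPRC, the defining leukocyte marker, had 0, 2 and 1 counts in deprived libraries against 0, 0 and 0. The KRT19 and CD68 calls, like all others in the table, were lost without deprived library 2 or 3 or complete library 2 or 3. None of 3 fibroblast and 2 endothelial markers tested was called in the main fit, with sums of 34.3 to 46.6 against 36.3 to 45.6 CPM and of 1.59 to 2.86 against 1.14 to 2.21 CPM. PDGFRB, a fibroblast marker, had 1.51, 1.73 and 1.59 CPM in deprived libraries, against 3.11, 2.54 and 2.16 CPM. It was called lower only with libraries matched by number (log2 change -0.69, adjusted p 0.0454, or 0.084 unmatched, edgeR). The part of these markers in the values below was not tested. In bulk RNA, fewer cells of a type and less RNA per cell cannot be told apart.

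Levels between genes are compared per length, in FPKM averaged over the 6 libraries. In that unit 14 of the 55 genes lay above 10, 22 between 1 and 10, and 19 under 1, and the median of the 41 tested genes was 6.72, against 12.2 for all tested genes. The highest levels belonged to BTBD1 at 52.8 FPKM, BTBD3 at 40.6, KBTBD2 at 32.9, KLHL7 at 26.5 and BTBD10 at 26.3. KLHL5 at 25.7 and BTBD6 at 26 FPKM were close behind, and the order among these last 4 rests on differences of under 1 FPKM. KLHL24 stood at 9.1 FPKM and ranked 7253 among 16407 genes, below KLHL20 at 12.5, KLHL42 at 12.3 and KLHL21 at 11.4.

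**Figure D1:**
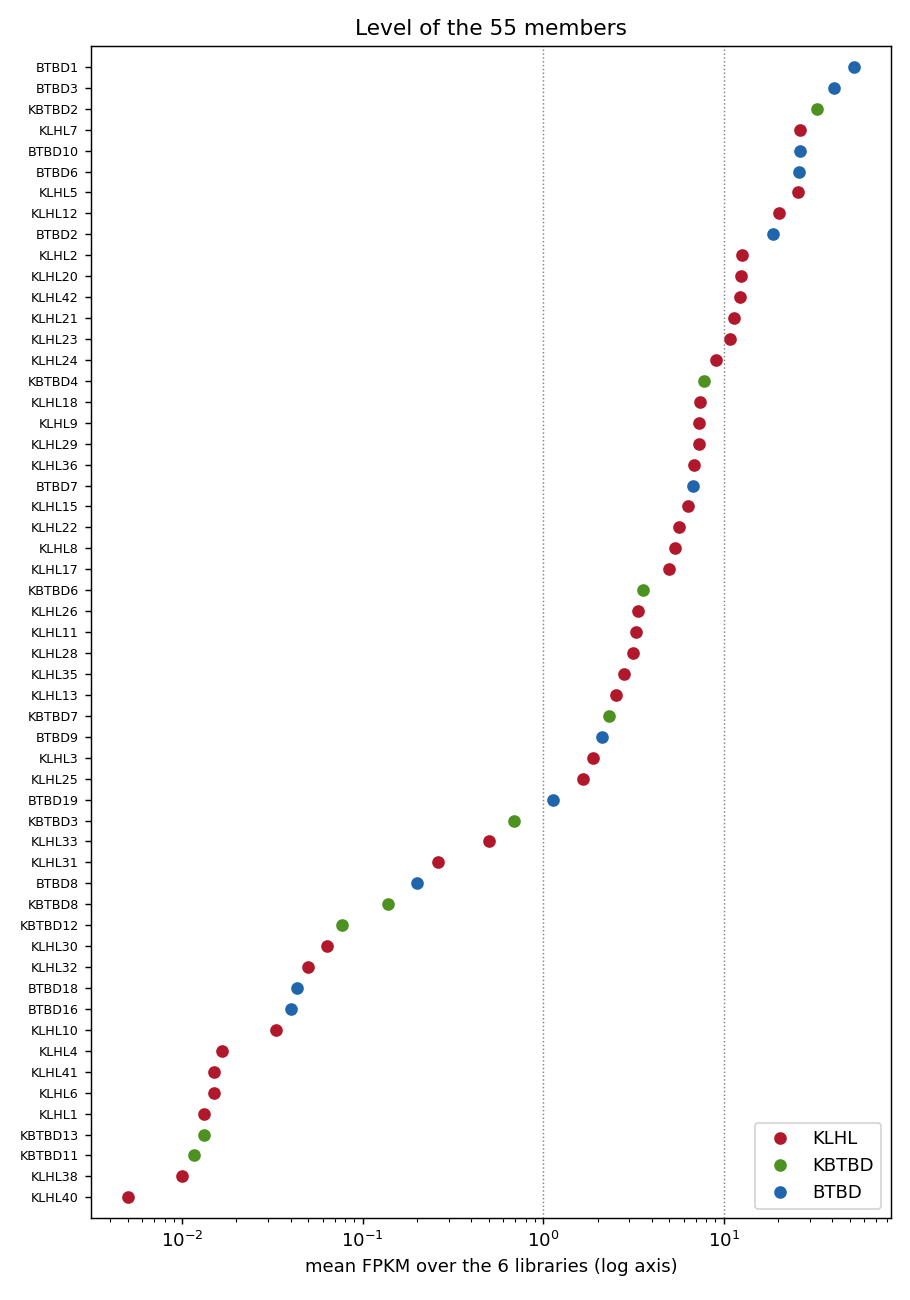
Mean FPKM over the 6 libraries (log axis) of each of the 55 genes, coloured by family, with dotted lines at 1 and 10 FPKM. BTBD1 at 52.8 FPKM is the highest, and 19 genes lie under 1 FPKM.

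KLHL24 lies on chromosome 3 at chr3:183635623-183684519 (GRCh38.p14, plus strand). The 250 bases before its annotated start, chr3:183635373-183635622, are shown because this gene had the largest fold of the tested KLHL genes. CpG dinucleotides, the sites of DNA methylation, are in capitals, as in the 4 sequences that follow for other genes (RefSeq promoters, GRCh38.p14, each 5′ to 3′ on the gene's strand). The 250 bases of KLHL24 hold 15 CpG and 60.8% G and C.
KLHL24 promoter: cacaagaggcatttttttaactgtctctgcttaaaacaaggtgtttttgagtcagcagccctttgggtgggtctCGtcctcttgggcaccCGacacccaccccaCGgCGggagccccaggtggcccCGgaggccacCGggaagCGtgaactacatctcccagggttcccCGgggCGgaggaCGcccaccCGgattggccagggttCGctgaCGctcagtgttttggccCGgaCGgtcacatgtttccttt
KLHL24 had 60.3, 78.7 and 90.6 CPM in deprived libraries 1, 2 and 3, against 46.7, 48.8 and 58.9 CPM in libraries 1, 2 and 3 of complete medium. The groups did not overlap, but deprived library 1 lay only just above complete library 3, and library 3 was the highest of each medium. The means were 76.5 ± 15.3 and 51.5 ± 6.52 CPM (SD, n = 3 each), a log2 change of 0.57 ± 0.146 (SE). With the library number as a block the log2 change was 0.56 and the adjusted p 0.00123 (edgeR). Without the block KLHL24 was also called by DESeq2 (adjusted p 0.00203), and by edgeR with library totals (0.0407), with a filter at 1 CPM (0.0476) and without robust shrinkage (0.0455). Deprived library 1 held the value down: without it the log2 change was 0.72 with an adjusted p of 0.00371, and without both libraries numbered 1, an alternative chosen after seeing the data, 0.66 with 0.000457. Without deprived library 3 the log2 change was 0.43 with an adjusted p of 0.137.

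Among the genes that rose, KLHL20 serves in the turnover of PML, DAPK1 and the autophagy kinase ULK1, KLHL21 is needed for the placing of Aurora B kinase in dividing cells, and KLHL42 directs the microtubule-severing protein katanin to the ligase. Their promoter sequences are shown because these are the called genes. KLHL20 on chromosome 1 (plus strand) has chr1:173714731-173714980 with 12 CpG and 50.8% G and C. KLHL21, also on chromosome 1 (minus strand), has chr1:6602870-6603119 with 38 CpG and 79.2%, and KLHL42 on chromosome 12 (plus strand) has chr12:27779983-27780232 with 35 CpG and 79.2%.
KLHL20 promoter: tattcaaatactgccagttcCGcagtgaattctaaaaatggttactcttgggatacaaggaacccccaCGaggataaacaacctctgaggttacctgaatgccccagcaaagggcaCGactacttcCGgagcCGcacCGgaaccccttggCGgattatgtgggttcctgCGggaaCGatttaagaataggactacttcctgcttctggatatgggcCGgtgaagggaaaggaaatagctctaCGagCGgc
KLHL21 promoter: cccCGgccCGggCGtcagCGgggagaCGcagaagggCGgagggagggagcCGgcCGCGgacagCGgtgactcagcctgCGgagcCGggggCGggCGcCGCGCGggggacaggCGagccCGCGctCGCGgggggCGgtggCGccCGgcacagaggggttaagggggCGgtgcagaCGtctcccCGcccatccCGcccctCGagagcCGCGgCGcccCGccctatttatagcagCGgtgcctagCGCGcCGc
KLHL42 promoter: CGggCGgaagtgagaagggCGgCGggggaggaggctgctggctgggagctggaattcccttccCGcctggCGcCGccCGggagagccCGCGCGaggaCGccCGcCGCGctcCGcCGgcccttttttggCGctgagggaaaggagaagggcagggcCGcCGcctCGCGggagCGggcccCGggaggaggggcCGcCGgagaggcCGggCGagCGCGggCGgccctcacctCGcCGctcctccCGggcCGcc
The KLHL20 stretch has the fewest CpG of the 3 and the lowest G and C content.

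KLHL20 had 55.2, 42.7 and 46.4 CPM in deprived libraries, against 37.2, 35.6 and 31.8 CPM in complete medium. Every deprived library lay above every library of complete medium, and deprived library 1 was the highest, unlike for KLHL24. The log2 change was 0.46 ± 0.104 (SE), with an adjusted p of 0.0328 (edgeR). KLHL21 had 50.3, 53.3 and 61.1 CPM in deprived libraries, against 44.3, 37.2 and 43.2 CPM in complete medium. Here deprived library 3 was the highest and complete library 2 the lowest, with a gap between the media. Its log2 change was 0.40 ± 0.0951 (adjusted p 0.0375, edgeR). KLHL42 had 89.5, 84.3 and 87.6 CPM in deprived libraries, against 74.4, 67.6 and 67.6 CPM in complete medium, the tightest groups of the 4 relative to their gap. Its log2 change was 0.32 ± 0.0651 (adjusted p 0.0265, edgeR). All 3 calls were lost when deprived library 2, deprived library 3, complete library 2 or complete library 3 was left out, with adjusted p from 0.0629 to 0.169, and each of those fits called 0 genes in the whole table. They were also lost in limma fits on log FPKM or TPM, with adjusted p from 0.0514 to 0.0779.

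**Figure D2:**
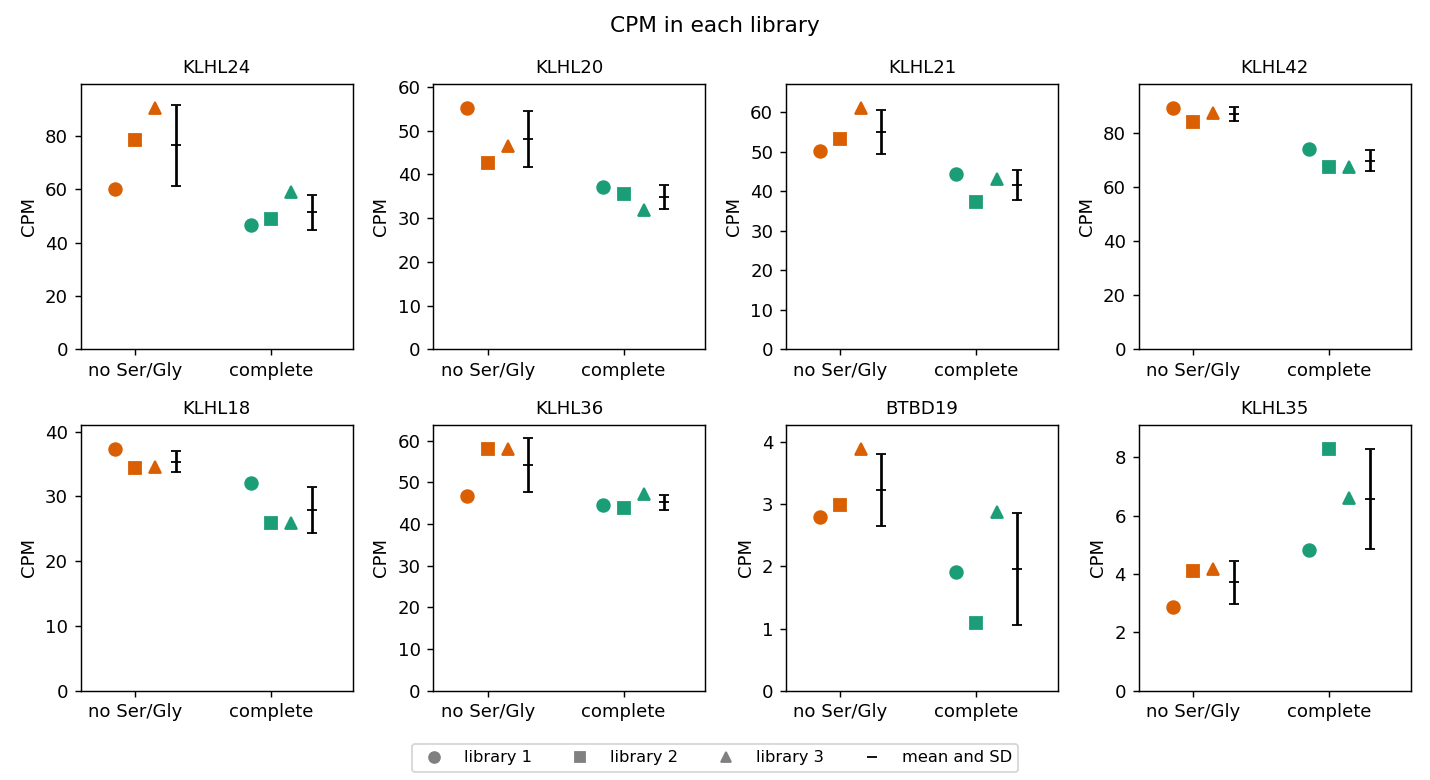
CPM of 8 genes in each of the 6 libraries, with cells lacking serine and glycine left of complete medium in each panel; symbols mark the library number and bars the mean and SD (n = 3). Deprived library 1 of KLHL24, at 60.3 CPM, lies just above complete library 3 at 58.9 CPM, and KLHL35 is the panel in which the deprived libraries lie below.

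The log2 change was negative in 11 of the 41 tested genes, and the 4 largest of these differences belonged to KLHL35, KLHL31, KBTBD3 and KLHL13. KLHL35 has chr11:75433204-75433453 before its start on chromosome 11 (GRCh38.p14, minus strand), with 5 CpG and 60% G and C, shown as the counterpart to the genes above.
KLHL35 promoter: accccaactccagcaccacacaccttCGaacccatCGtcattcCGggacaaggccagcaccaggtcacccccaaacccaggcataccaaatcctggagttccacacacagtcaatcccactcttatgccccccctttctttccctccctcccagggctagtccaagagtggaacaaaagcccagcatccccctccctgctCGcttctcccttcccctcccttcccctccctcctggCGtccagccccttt
KLHL35 had 2.86, 4.12 and 4.18 CPM in deprived libraries, against 4.84, 8.29 and 6.6 CPM in complete medium. The groups did not overlap, although complete library 1 lay close to the deprived ones. The log2 change of -0.82 ± 0.226 (SE) had an adjusted p of 0.0536 (edgeR), 0.00463 with the block and 0.0232 in DESeq2. It was called without complete library 1, with an adjusted p of 0.0269 (edgeR). KLHL31, a gene of heart and skeletal muscle, had 1.22, 1.13 and 1.41 CPM in deprived libraries, against 1.61, 1.57 and 1.56 CPM in complete medium, without overlap but with a log2 change of -0.33 ± 0.236 (adjusted p 0.395, edgeR). KBTBD3 had 2.51, 2.45 and 2.77 CPM in deprived libraries, against 3.29, 2.54 and 2.64 CPM, which overlap (log2 change -0.13). KLHL13, which acts with KLHL9 on Aurora B, had 7.28, 7.11 and 7.3 CPM in deprived libraries, against 6.34, 9.62 and 6.9 CPM in complete medium. Its log2 change of -0.08 rested on complete library 2 and was 0.13 without that library.

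Besides KLHL24, another 4 genes were called higher with the library number as a block and not without it. Of all tested genes, 11.1% were called higher with the block and 2.73% without it. KLHL18 had 37.3, 34.3 and 34.5 CPM in deprived libraries, against 32, 25.9 and 25.9 CPM in complete medium, with no overlap and library 1 the highest of each medium. Its log2 change was 0.34 ± 0.0971, with an adjusted p of 0.0608, or 0.00765 with the block and 0.0219 without complete library 1 (edgeR). KLHL36 had 46.8, 58 and 57.9 CPM in deprived libraries, against 44.5, 43.9 and 47.2 CPM in complete medium. Deprived library 1 fell within the range of complete medium, the other two lay well above it, and the adjusted p was 0.0996, or 0.0267 with the block and 0.00924 without that library (edgeR, log2 change 0.26). BTBD9, a gene known from its association with restless legs syndrome, had 19.6, 15.4 and 17.5 CPM in deprived libraries, against 16.4, 13.2 and 14 CPM in complete medium. The ranges overlap, but each deprived library lay above the complete library of its own number (log2 change 0.27, adjusted p 0.189, or 0.0473 with the block, edgeR). BTBD19 had 2.8, 2.99 and 3.89 CPM in deprived libraries, against 1.91, 1.09 and 2.88 CPM in complete medium. It had the largest fold of the set, 1.64, with a wide error (log2 change 0.71 ± 0.308, adjusted p 0.168, or 0.0409 with the block, edgeR), and the log2 change was 0.43 without complete library 2 and 1.10 without complete library 3.

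The most abundant genes of the set hardly differed. BTBD1, which binds topoisomerase I, had 157, 152 and 148 CPM in deprived libraries, against 156, 155 and 155 CPM in complete medium. BTBD3, which orients dendrites in neurons, had 168, 181 and 180 CPM in deprived libraries, against 176, 188 and 178 CPM in complete medium. Both had a log2 change of -0.03, with SE of 0.0547 and 0.0595. KBTBD2, which targets the PI3-kinase regulatory subunit p85α, had 94, 115 and 117 CPM in deprived libraries, against 93.6, 100 and 101 CPM in complete medium. Both libraries numbered 1 were the lowest of their medium, and the log2 change was 0.15 ± 0.0863 (adjusted p 0.303, edgeR). KLHL7, known from inherited retinal degeneration, had 61.7, 59.4 and 58.2 CPM in deprived libraries, against 55.9, 56.3 and 59.8 CPM (log2 change 0.06). BTBD10 had 61.2, 50.2 and 54.9 CPM in deprived libraries, against 56.6, 52.5 and 55 CPM, with a log2 change of 0.02 whose sign depended on deprived library 1 (-0.06 without it). The ranges of all 5 genes overlapped between the media.

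Over the whole set, 3 of 41 tested genes were called higher, where 2.73% of all tested genes were, and 0 were called lower, where 4.22% were (edgeR). At an unadjusted p under 0.05 there were 7 higher and 1 lower, 8 in all, where 27.3% of all tested genes were at that level. DESeq2 called 5 of the set higher and 1 lower, and 492 higher and 736 lower in the whole table of 16407 genes. The genes of the set called higher numbered 6 without deprived library 1, 4 without complete library 1, and 0 without any one of deprived libraries 2 and 3 and complete libraries 2 and 3. In the whole table those fits called 758, 530 and 0 genes higher, against 343 with all libraries. With the block, 8 of 41 were called higher and 1 lower, against 11.1% and 13.2% of all tested genes. All 3 deprived libraries lay above all 3 of complete medium for 8 genes (KLHL24, KLHL20, KLHL21, KLHL42, KLHL18, KLHL11, KBTBD6 and BTBD7), against 16.2% of all tested genes, and below them for 2 (KLHL35 and KLHL31), against 16.4%. The log2 change was above 0 in 30 of 41 genes, against 49.8% of all tested genes. Since the lean of the set was what chose it, nothing is read from these shares. The median log2 change was 0.08 for the 41 genes, 0.08 for 26 KLHL, 0.13 for 6 KBTBD and 0.02 for 9 BTBD genes, and -0.000702 for all tested genes, and the median of the KLHL genes was 0.07 without KLHL24. The median of the set lay between 0.07 and 0.12 under every alternative scaling, filter, tool and left-out library that was run. The median of all tested genes moved too, to 0.03 with library totals, 0.02 on both FPKM scales and 0.04 on TPM.

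**Figure D3:**
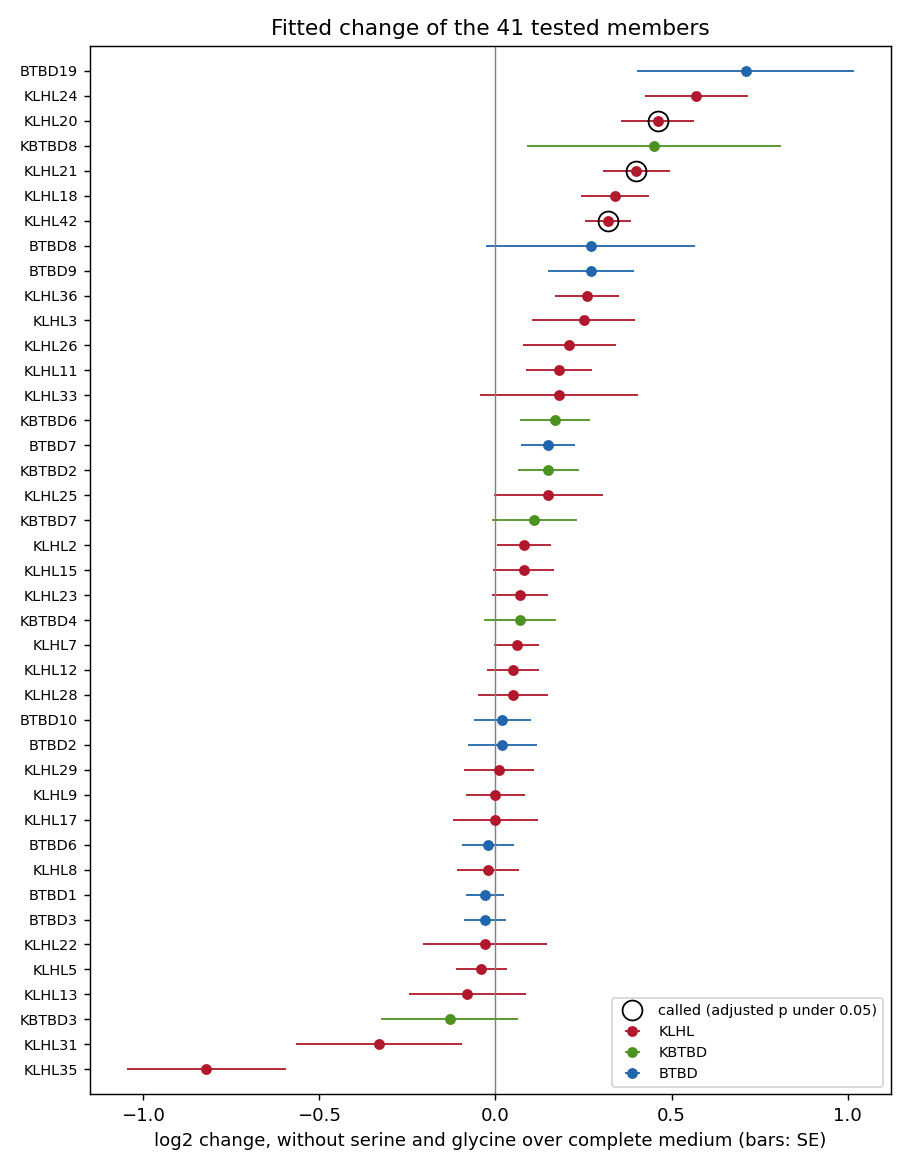
Log2 change, cells without serine and glycine over complete medium, of the 41 tested genes with their SE, ordered by size and coloured by family; rings mark the 3 called genes. The changes run from 0.71 for BTBD19 to -0.82 for KLHL35, with most of the genes near 0.

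Summed over all its members, the KLHL family took 939, 926 and 937 CPM in deprived libraries, against 835, 831 and 845 CPM in complete medium. The means were 934 ± 6.87 and 837 ± 7.06 CPM (SD, n = 3 each), a difference of 97.1 CPM. KLHL20, KLHL21, KLHL24 and KLHL42 held 69 CPM of it, or 71%. Since the lean of the KLHL genes chose the set, nothing is read from this difference or this share. The other KLHL genes summed to 684, 667 and 651 CPM in deprived libraries, against 632, 642 and 643 CPM in complete medium, close together but without overlap. KBTBD genes summed to 144, 166 and 167 CPM in deprived libraries, against 142, 146 and 147 CPM in complete medium, where deprived library 1 fell inside the range of complete medium. BTBD genes summed to 538, 539 and 547 CPM, against 541, 534 and 540 CPM, which overlap.

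Adaptors that share a task can be set side by side, though differences between them were not tested. For Aurora B, KLHL21 rose as given above, and KLHL9 had 36.7, 42.2 and 41 CPM in deprived libraries, against 36.8, 41.3 and 41.4 CPM in complete medium, a log2 change of 0.00 ± 0.0827. KLHL22, which acts on PLK1 at kinetochores and on DEPDC5 in amino acid sensing by mTORC1, had 21.1, 12.7 and 14.8 CPM in deprived libraries, against 18.5, 14.8 and 16.4 CPM. Its log2 change was -0.03 ± 0.175 (adjusted p 0.935, edgeR), and library 1 was the highest of each medium. KLHL12, which ubiquitinates the COPII coat protein SEC31 for collagen export, had 67.2, 62.1 and 58.1 CPM in deprived libraries, against 63.1, 58.1 and 59.5 CPM, with overlap and a log2 change of 0.05.

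KLHL2 and KLHL3 both send WNK kinases, regulators of salt transport, to degradation. KLHL3 had 14.7, 12.8 and 11.8 CPM in deprived libraries, against 13.3, 9.98 and 9.72 CPM in complete medium (log2 change 0.25 ± 0.146, adjusted p 0.297, edgeR). KLHL2 had 39.3, 34.4 and 37.1 CPM in deprived libraries, against 36.3, 34 and 34.2 CPM (log2 change 0.08). In both genes library 1 was the highest of each medium, and the ranges overlap. KLHL25, an adaptor for the translation inhibitor EIF4EBP1 and the lipogenic enzyme ACLY, had 6.06, 5.14 and 6.48 CPM in deprived libraries, against 4.9, 5.08 and 5.94 CPM (log2 change 0.15 ± 0.154). KLHL15, which acts on a regulatory subunit of phosphatase PP2A, had 36, 41.7 and 39.3 CPM, against 33.4, 39.1 and 38.1 CPM (log2 change 0.08). Deprived libraries were a little higher than the complete library of their own number for KLHL25 and KLHL15, but neither was called with or without the block.

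Among the KBTBD genes, KBTBD6 and KBTBD7 form an adaptor pair for TIAM1, an activator of RAC1. KBTBD6 had 20.9, 18.1 and 17.3 CPM in deprived libraries, against 17, 16.9 and 16.2 CPM in complete medium, without overlap (log2 change 0.17 ± 0.0995, adjusted p 0.297, edgeR). KBTBD7 had 9.61, 10.7 and 11.7 CPM in deprived libraries, against 9.8, 9.41 and 10.6 CPM, with overlap (log2 change 0.11 ± 0.121). Both lie 57 kb apart on chromosome 13, and both had counts that were not whole in all 6 libraries, so reads shared between similar sequences were divided by estimate. KBTBD4, which acts on the CoREST corepressor, had 15.8, 18.4 and 16.4 CPM in deprived libraries, against 17.2, 15.3 and 15.6 CPM (log2 change 0.07). KBTBD8, known from neural crest specification, was rare, with 0.816, 0.597 and 0.648 CPM in deprived libraries, against 0.478, 0.605 and 0.42 CPM. Its log2 change of 0.45 ± 0.36 had an adjusted p of 0.449 (edgeR), and deprived library 2 fell within the range of complete medium.

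BTBD7, a gene of branching morphogenesis, had 45.7, 47.2 and 51.4 CPM in deprived libraries, against 44.8, 40.5 and 45 CPM in complete medium. The media were separated by under 1 CPM, and the log2 change was 0.15 ± 0.0768 (adjusted p 0.244, edgeR). KLHL11, known as an autoantigen in paraneoplastic encephalitis, had 26.3, 23.7 and 24 CPM in deprived libraries, against 19.5, 22.6 and 23.2 CPM (log2 change 0.18 ± 0.0942, adjusted p 0.243, edgeR), again with a narrow gap. KLHL5 had 139, 126 and 118 CPM in deprived libraries, against 125, 138 and 130 CPM, where deprived libraries were both the highest and the lowest (log2 change -0.04). The remaining 9 tested genes without values here (BTBD2, BTBD6, BTBD8, KLHL8, KLHL17, KLHL26, KLHL28, KLHL29 and KLHL33) had log2 changes from -0.02 to 0.27, none called with or without the block.

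The 14 genes under the filter had 1 to 42 counts summed over the 6 libraries and at most 0.0767 FPKM. Several are known from tissues other than epithelium. KLHL40 and KLHL41, which keep the thin filaments of skeletal muscle in order, had 0, 1 and 0 counts in deprived libraries against 0, 0 and 0 in complete medium, and 0, 0 and 0 against 2, 0 and 1. KLHL10, an adaptor of spermatids, had 2, 1 and 3 counts in deprived libraries against 0, 0 and 0 in complete medium, all at or under 3 counts a library, the limit that a count of 0 allows, so no fold is given. KLHL6, a B-cell adaptor, had 3, 4 and 1 counts in deprived libraries against 1, 0 and 0 in complete medium, while its neighbour KLHL24, 79.9 kb away, had 46.7 to 90.6 CPM. The others were KLHL1, KLHL4, KLHL30, KLHL32, KLHL38, KBTBD11, KBTBD12, KBTBD13, BTBD16 and BTBD18, and none of them can show a difference at this depth.

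The genes of the set are longer than most, a property that their symbols did not select for. Their median effective length was 4247 bases, from 1792 to 7578 among the tested genes, against 2907 bases for all tested genes, and KLHL24 has 7034 bases. Across all tested genes the median log2 change moved with length, from -0.08 in the shortest of 5 equal bins to -0.03, -0.00, 0.03 and 0.06 in the next 4. None of the 41 genes lay in the shortest bin, and 8, 9, 11 and 13 lay in the next 4, where their medians were 0.02, 0.08, 0.11 and 0.18. With a correction for length, KLHL20, KLHL21 and KLHL42 were still called, with adjusted p of 0.0374, 0.0472 and 0.0401 (edgeR), and KLHL24 had a log2 change of 0.52 with an adjusted p of 0.0758. With length and the block together, 6 genes of the set were called higher and 1 lower, and KLHL36 and BTBD9 were no longer among them (adjusted p 0.0724 and 0.112, edgeR). Of all 12548 tested genes, that fit called 1336 higher and 1520 lower.

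**Figure D4:**
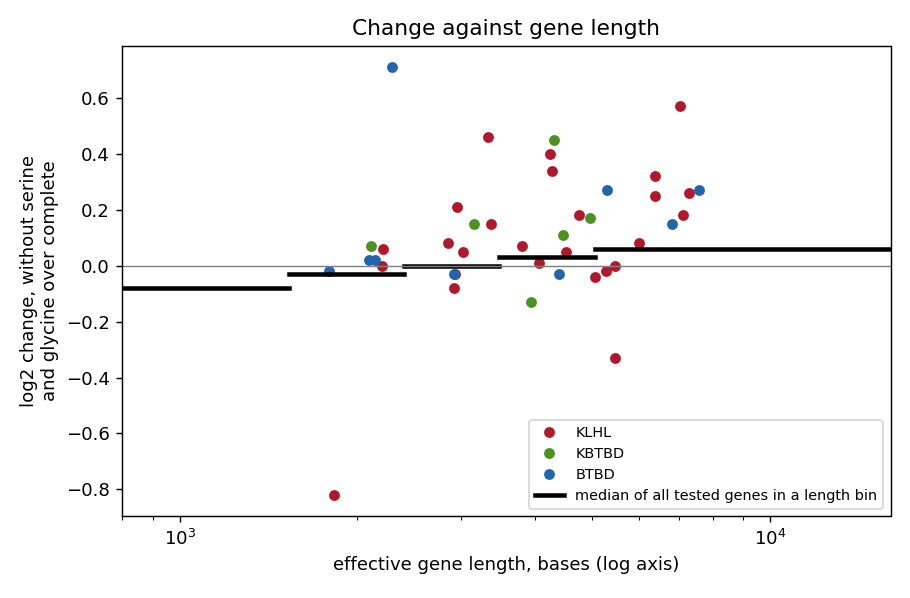
Log2 change, cells without serine and glycine over complete medium, against effective gene length (log axis) of the 41 tested genes, with bars for the median of all tested genes in each of 5 bins of length with equal numbers of genes. The bars climb from -0.08 to 0.06, and the genes of the set lie in the upper 4 bins.

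RefSeq promoter windows of 300 bases, from 250 before to 50 after the annotated start, were found for 46 of the 55 genes, 63 windows in all. The 49 windows of tested genes had a median of 22 CpG and 63.7% G and C, the 14 windows of untested genes 6 CpG and 51.2%, and all 35116 RefSeq windows 14 CpG and 58.7%. Among the called genes, the windows of KLHL21 and KLHL42 held 47 and 44 CpG and that of KLHL20 held 15, near the median of all windows, while KLHL35 had 9. Both strands were searched for 6 short motifs of known transcription factors. CACGTG was in 4.08% of the windows of tested genes and 7.26% of all windows, TGACGT in 8.16% and 7.98%, GTAAACA in 6.12% and 3.42%, GCGCATGC in 4.08% and 3.05%, and CCAAT in 28.6% and 34.6%. TGATGNAA, the composite site read by ATF4 with its partners, was in 0 of 49 windows and in 3.62% of all. Matches that overlap a match of another motif were kept. The KLHL24 window held CCAAT on the reverse strand, seen as attgg in the sequence above, 58 bases before the start, and the windows of KLHL20, KLHL21, KLHL42 and KLHL35 held none of the 6. A match describes letters in the window and no binding.

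The genes are spread over 21 chromosomes, with at most 6 on one (chromosomes 1 and 3). Few lie near each other, KLHL6 with KLHL24 and KBTBD6 with KBTBD7 as given above. KLHL10 and KLHL11 are separated by 134 bases on chromosome 17, yet KLHL10 had at most 3 counts where KLHL11 had 19.5 to 26.3 CPM. KLHL41 and KLHL23 lie 208 kb apart on chromosome 2, and KLHL23 had 39.6, 42.1 and 44.3 CPM in deprived libraries, against 38.8, 37.6 and 43.3 CPM in complete medium.

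The ligase that these adaptors load was covered by lists of its other parts. Of 10 genes of the CUL3 core and its exchange factors 0 were called in either direction, with a median log2 change of 0.06. With the block 1 of them was called lower, against 13.2% of all tested genes. CUL3 had 62.6, 73.1 and 72.8 CPM in deprived libraries, against 56, 60.9 and 68.3 CPM in complete medium, overlapping because of complete library 3 and deprived library 1. Its log2 change was 0.17 ± 0.0902 (adjusted p 0.248, or 0.0545 with the block, edgeR). RBX1, the RING partner, had 41.5, 36.5 and 35.2 CPM in deprived libraries, against 39.1, 46.8 and 38.8 CPM (log2 change -0.14 ± 0.0973, adjusted p 0.385, edgeR). KEAP1, the BTB-Kelch adaptor that holds NRF2 in check, had 51.4, 59.1 and 66.6 CPM in deprived libraries, against 63.1, 64.3 and 63.4 CPM. Deprived libraries spread to both sides of complete medium for KEAP1, with a log2 change of -0.11 ± 0.0894 (adjusted p 0.463, edgeR). Of 5 BTB-Kelch genes with other symbols, KEAP1 among them, 0 were called in either direction (edgeR). With the block 1 of the 5 was called higher, against 11.1% of all tested genes.

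CUL3 ligases are switched on when NEDD8 is joined to the cullin and off when the COP9 signalosome removes it. Of 22 genes of NEDD8 conjugation and removal 0 were called higher and 3 lower, where 2.73% and 4.22% of all tested genes were, and the 3 encode subunits of the signalosome. COPS6 had 128, 131 and 127 CPM in deprived libraries, against 155, 179 and 172 CPM in complete medium, far apart and with tight deprived libraries (log2 change -0.39 ± 0.0652, adjusted p 0.0217, edgeR). COPS3 had 131, 143 and 128 CPM, against 161, 183 and 167 CPM (log2 change -0.35 ± 0.0701, adjusted p 0.0265, edgeR). COPS7A had 38.6, 34.8 and 32 CPM, against 45.7, 49 and 43.5 CPM (log2 change -0.39 ± 0.0867, adjusted p 0.032, edgeR). None of the 3 overlapped between the media. The other 6 subunits in the list were not called, among them the catalytic one, COPS5, with 67.9, 74.7 and 72.8 CPM in deprived libraries, against 73.7, 77.4 and 76.1 CPM. The 3 calls share the dependence given for KLHL20, on deprived libraries 2 and 3 and complete libraries 2 and 3, without any of which no gene was called. With the block 1 of the 22 was called higher and 4 lower, against 11.1% and 13.2% of all tested genes. The lower ones were the 3 above and COPS4, also of the signalosome. COPS4 had 24, 25.3 and 24.5 CPM in deprived libraries, against 27.9, 31.3 and 27 CPM (log2 change -0.22, adjusted p 0.0479 with the block, edgeR). The higher one was again a signalosome subunit, COPS7B. It had 47, 46.6 and 50 CPM in deprived libraries, against 43.1, 37.6 and 41.4 CPM in complete medium. Its log2 change was 0.23 (adjusted p 0.0257 with the block, edgeR). The median log2 change of the 22 was -0.08, against -0.000702 for all tested genes. Effective lengths were 1126 bases for COPS6, 1486 for COPS3 and 1616 for COPS7A, and ran from 338 (NEDD8) to 6307 (COPS2) in the list. All tested genes of 49.5 to 1530 bases had a median log2 change of -0.08, and those of 1531 to 2396 bases -0.03. Whether length has a part in the 3 calls or in the median of the list was not tested.

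Of 14 other BTB adaptors of CUL3, such as SPOP and KCTD proteins, of 7 other cullins and of 8 Kelch genes without a BTB domain, 0 were called in either direction, with medians of 0.06, -0.13 and 0.10. With the block, 1 of the 14 was called higher and 1 lower, 2 of the 7 cullins (CUL4A and CUL9) lower, and 1 of the 8 Kelch genes (KLHDC8B) higher. Of all tested genes, that fit called 11.1% higher and 13.2% lower.

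Proteins known to be bound or ubiquitinated through these adaptors can be followed here as transcripts only. Of 28 listed, 26 were tested, 0 were called in either direction, and the median log2 change was -0.05. With the block, 3 were called higher (WNK4, DAPK1 and DVL3) and 6 lower (ACLY, EIF4EBP1, NOLC1, TCOF1, PEF1 and PLK1), where 11.1% and 13.2% of all tested genes were. The following 3 were picked after their values were seen. WNK4, a target of KLHL2 and KLHL3, had 12.6, 10.8 and 11.2 CPM in deprived libraries, against 7.17, 2.84 and 6.72 CPM in complete medium, without overlap (log2 change 1.04 ± 0.272, adjusted p 0.0519, or 0.00465 with the block, edgeR). ACLY, a target of KLHL25, had 281, 329 and 342 CPM in deprived libraries, against 362, 407 and 406 CPM (log2 change -0.30 ± 0.0855, adjusted p 0.0577, or 0.00263 with the block, edgeR). DAPK1, a target of KLHL20, had 187, 129 and 143 CPM in deprived libraries, against 144, 93.1 and 118 CPM, overlapping but each higher than the complete library of its number (adjusted p 0.228, or 0.00187 with the block, edgeR). KRT14, the keratin whose turnover KLHL24 governs in skin, was too low to test, with 1.01, 2 and 3 counts in deprived libraries against 4, 1 and 1 in complete medium, and TIAM1 had 2, 0 and 0 counts against 0, 0 and 0.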

How the data were processed

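RNA of C666-1 cells from 2 media, 3 libraries each, was extracted with Trizol and sequenced as fragmented mRNA on the DNBSEQ platform, per the labels' protocols. The submitters' processing notes name RSEM 1.3.1, Bowtie2 2.3.4.3 and, as build, GRCh38, without their roles, with the annotation not given in the sources used here. Expected counts for each gene were deposited by the authors, which need not be whole (15.2 to 16% of values per library were not), beside FPKM (scaled by length and depth) and TPM columns, likewise deposited. Whether the kit kept strand is not stated, so antisense overlaps cannot be separated. Intervals of depth cover counting error only, with 16612196 to 17030355 counts per library.

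Expected counts were rounded and fitted with edgeR 4.0.16 under R 4.3.3: filterByExpr (minimum count 10, minimum total 15), TMM, a robust quasi-likelihood fit with medium as its term, two-sided p-values adjusted by Benjamini-Hochberg over 12548 genes, called under 0.05. The SE is the log2 change over the root of the F statistic. The procedure was tested on simulated data. Replicates differed beyond sampling noise (2.73 to 19.1 chi-square units for each gene), and pairs across media gave 9.22 to 33.9. The labels number the libraries 1 to 3 in each medium. Deviations of same-numbered libraries from their group means correlated at 0.326, 0.141 and 0.19, all past the 0.1 required to treat the numbers as pairs, and those of other pairs ranged from -0.282 to 0.163, the highest being deprived library 2 with complete library 3. The blocked fit is therefore printed beside results whose call it changes.

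Alternatives were library totals, RLE size factors, DESeq2 1.42.0, limma 3.58.1 (voom, log2 of FPKM or TPM plus a pseudocount of 1, and of FPKM plus 0.1), other filters, no robust shrinkage, a length correction (lowess span 0.3) and each library left out. The members and gene lists were chosen with earlier results of these data known. Genes named with full values were KLHL24, called members, the 4 largest rises and falls with at least 1 CPM, the 5 highest in FPKM, members whose call the block changes, and called genes of each list (up to 4) with CUL3, RBX1 and KEAP1. Further members were given by their role. ZBTB16, KLHDC8A, COL1A2 and CD3E are not analysed here, and the result of 1 listed gene is not reported here.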

Additional observations from a re-analysis of the deposited data

How the results depend on the processing

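The 3 members called higher became 5 in DESeq2, 8 with the replicate block, 6 with the block and length correction, 7 without both libraries numbered 1 (chosen after seeing the data), and 0 in limma on log2(FPKM + 1), log2(FPKM + 0.1) and log2(TPM + 1), where 7, 7 and 8 members were higher at an unadjusted p under 0.05. Calls in the whole table, higher and lower together, went from 872 to 1228, 3044, 2856 and 3643 in the same order. The 3 limma fits called 340, 356 and 117 genes. Leaving out 1 library gave 0 to 6 members called higher. The number was 0 without deprived library 2 or 3 or complete library 2 or 3, where no gene of the table was called by edgeR and 5 to 7 members were higher at an unadjusted p under 0.05. It was 6 without deprived library 1, where 1737 genes of the table were called. The 0 called lower became 1 in DESeq2, with no filter, with the block, with the block and length correction and without both libraries numbered 1, and 0 to 1 with 1 library left out. With no filter, 1083 genes of the table were called in either direction. The median log2 change of 0.08 was 0.12 on log2(FPKM + 0.1), where that of all tested genes was 0.02. It was 0.08 to 0.12 with 1 library left out. Beyond the calls printed in the report, the replicate block changed no other member's call. Small log2 changes turned sign. BTBD1 was 0.00 with library totals and on both FPKM scales and 0.03 on TPM. KLHL13 was 0.01, 0.02 and 0.03 on log2(FPKM + 1), log2(FPKM + 0.1) and TPM, and ranged from -0.19 to 0.13 with 1 library left out. KLHL7 was -0.02 on both FPKM scales. BTBD3 was 0.02 on TPM and ranged from -0.05 to 0.00 with 1 library left out. BTBD10 was -0.03 and KBTBD3 0.01 without both libraries numbered 1, and BTBD10 ranged from -0.06 (without deprived library 1) and -0.01 (without complete library 2) to 0.09. The cause of these turns was not tested. Depth limits the 14 untested members, with at most 42 counts in all.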

Other observations

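Library 1 of the deprived medium stood apart from the other two of its medium: its chi-square per gene was 16.9 and 19.1 against deprived libraries 2 and 3, which differed from each other by 2.73, and 10.4 against complete library 1. Complete library 1 likewise gave 13.5 and 9.01 against complete libraries 2 and 3, which differed from each other by 4.09. Among the 41 tested KLHL, KBTBD and BTBD genes, deprived library 1 was the highest of its medium for 17 (41.5%, against 40.7% of all tested genes). It was the lowest for 15 (36.6%, against 40.8%).

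Counts that were not whole, a sign that reads shared with similar sequences were divided by estimate, occurred in 10 of the 55 genes. They were found in all 6 libraries for KBTBD4, KBTBD6, KBTBD7, KLHL23, KLHL32 and KLHL33, in 4 for KBTBD12, in 3 for KLHL8 and in 1 for KLHL11 and KLHL30. KLHL20, KLHL21, KLHL24, KLHL35 and KLHL42 had whole counts in every library.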
